A study of Mus musculus with 6 samples.

Results

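N-acetylcysteine (NAC), a cell-permeable thiol that supplies cysteine, was compared with mock treatment in cultured mouse neural stem/progenitor cells (NSPCs), to see what a thiol antioxidant given alone changes in their mRNA. Libraries were chosen by treatment, control or NAC, and these were 4 of the 6 libraries of the series. Control cells were mock-treated and NAC cells were given 5 mM NAC, each for 48 h in N2 medium with EGF and bFGF. The other 2 libraries came from cells given 5 µM paraquat (PQ), a redox cycler that makes superoxide, and stand beside these groups where stated. The study asked how oxidative stress acts on NSPCs and on their interferon response. By its description the cells were a single immortalized Ink/Arf-/- culture derived from the subventricular zone of neonatal mice, a mixture of stem cells and committed precursors, and no wild-type or freshly isolated cells were compared. The label of control library 1 gives the genotype as an Ink/Ark knockout on C57BL/6, and those of control library 2 and both NAC libraries give neither a genotype nor a strain. Nothing in the labels says that the libraries came from separate cultures, so the p-values measure the spread between these samples, which may be technical.

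Expression was measured by RNA sequencing, with expected counts and FPKM for each gene. Total expected counts were 9849392 and 10040827 in control libraries 1 and 2, and 10698241 and 9907726 in NAC libraries 1 and 2; pairs of values are given in that order throughout. The libraries listed 15193, 15274, 15256 and 15342 genes. The 10 most abundant genes held 4.8% and 5.03% of the counts in the control libraries and 3.82% and 4.03% in the NAC libraries. The labels place control library 1 on an Illumina platform after column extraction, whereas control library 2 and both NAC libraries are labelled as Trizol extractions read on BGISEQ-500. A comparison within the BGISEQ-500 libraries therefore has 1 control library against 2 NAC libraries.

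As background, cells that run short of charged tRNAs or meet endoplasmic reticulum (ER) stress translate the transcription factor ATF4, which switches on genes for amino acid uptake, amino acid synthesis and tRNA charging. HIF-1, the factor of the hypoxia response, switches on glycolytic genes, and NRF2 switches on genes for glutathione and detoxification when reactive oxygen or electrophiles rise. Cysteine is the scarce amino acid of glutathione, and thiols also bind zinc and copper.

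The locus named in the genotype was read first. Cdkn2a, which encodes the cell cycle inhibitors p16 and Arf, was at 16.6 and 19.1 FPKM in the control libraries and 14.4 and 15.7 FPKM in the NAC libraries. Its neighbour Cdkn2b, which encodes the inhibitor p15, was at 10.8 and 12.9 FPKM in the control libraries and 8.14 and 10.6 FPKM in the NAC libraries. For each gene both NAC values lay below both control values, and neither was called (adjusted p = 0.24 and 0.13). Gene-level values cannot show which exons are deleted, so they check neither the genotype nor the labels.

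Marker genes were then read as whole lists. Of 10 neural stem and progenitor markers, 9 passed the filter, an average of 1 FPKM or more over the 6 libraries, and their list summed to 3313 and 3385 FPKM in control and 2579 and 2499 FPKM in NAC. Vim, an intermediate filament gene, was the most abundant of them, at 2171 and 2323 FPKM in the control libraries and 1362 and 1389 FPKM in the NAC libraries, and without it the list summed to 1142 and 1062 FPKM in control and 1217 and 1109 FPKM in NAC. The median log2 fold change of NAC over control among the 9 was 0.07. Of the 9, 3 were called lower, Vim (-0.75), Sox2 (-0.31) and Nes (-0.28), and 0 higher. Prom1, which encodes the surface marker CD133, was at 0.06 and 0 FPKM in control and 0 in both NAC libraries. Of 8 neuronal markers, 1 passed, the early transcription factor gene Dlx2, and Dcx, a marker of migrating neuroblasts, stayed at 0.08 FPKM or lower. Of 8 oligodendrocyte lineage markers, 4 passed, with sums of 652 and 753 FPKM in control and 816 and 926 FPKM in NAC. The lineage factor genes Olig1 and Olig2 made up most of that sum in every library, while the later markers Sox10 and Mog were at or near 0. Astrocyte markers passed for 4 of 6 genes and summed to 4.4 and 4.6 FPKM in control and 9.7 and 9.7 FPKM in NAC, with the filament gene Gfap most abundant and the connexin gene Gjb6 at 0. Of the 4, Gfap and Aqp4 were called higher, and S100b (log2 fold change 1.17) and Aldh1l1 (-0.49) were not called. Aqp4 and S100b averaged 0.745 and 0.635 FPKM in control, under the filter. Of 10 microglial and macrophage markers, 2 passed, with sums of 3.2 and 3.0 FPKM in control and 5.9 and 4.8 FPKM in NAC. P2ry12 led that list, and without it the sums were 1.7 and 1.7 FPKM in control and 2.0 and 2.2 FPKM in NAC. Aif1, C1qa, C1qb and Tmem119 were at or near 0. Endothelial markers passed for 1 of 7 genes, Flt1, at 12.4 and 13.3 FPKM in the control libraries and 13.5 and 16.7 FPKM in the NAC libraries, and Cldn5 was at 0. Pericyte and fibroblast markers passed for 1 of 8 genes and ependymal markers for 3 of 5, while 0 of 5 blood markers passed.

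Across the genome, 11717 genes passed the filter and were tested with edgeR. At an adjusted p under 0.05, 2186 genes (18.7%) were called, 1056 of them higher in NAC (9.01%) and 1130 lower (9.64%). In 2183 of the called genes the NAC libraries lay wholly above or wholly below the control libraries, and in 3 the groups overlapped. The median log2 fold change over all tested genes was -0.002, and the middle 90% of called genes ran from -1.20 to 1.15. A change of at least 2-fold was seen in 324 called genes, 149 higher and 175 lower. Among the 1649 abundant genes, those averaging 50 FPKM or more over the libraries, 147 rose and 260 fell. Within the BGISEQ-500 libraries alone, 1833 genes were called, and 1577 of the 2186 were among them. Without NAC library 1 the count was 1286, of which 1246 were shared with the 2186, and without NAC library 2 it was 1427, with 1353 shared. No called gene changed direction in any of these refits. Because the groups did not overlap in 2183 of them, a refit with fewer libraries could hardly reverse a direction. In 105 of the called genes 1 of the 2 groups averaged under 1 FPKM, and such genes passed the filter through other libraries.

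**Figure D1:**
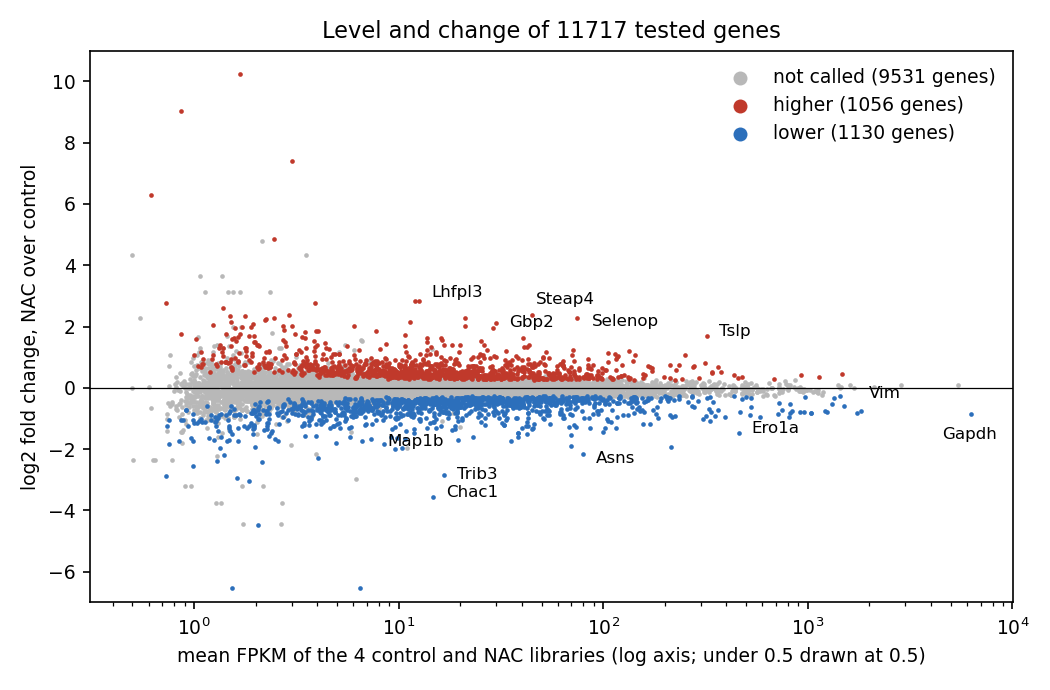
Each point is a tested gene, placed by its mean FPKM over the 4 control and NAC libraries (log axis) and its log2 fold change of NAC over control. Red points are the 1056 genes called higher, blue points the 1130 called lower, and Chac1, Asns and Ero1a lie low among expressed genes while Selenop and Tslp lie high.

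Genes that ATF4 and its partner CHOP switch on had the lowest median of the 37 lists examined. Of 21 tested members, 18 fell, against 9.64% of all tested genes, 0 rose and 3 were not called, and the median log2 fold change was -1.31. One of the 18, Cdsn, for the adhesion protein corneodesmosin, was at 1.25 and 1.6 FPKM in the control libraries and 0.7 and 0.68 FPKM in the NAC libraries and passed the filter through libraries other than those of NAC, so its call (log2 fold change -1.09) does not count towards the list. It was lost without control library 2 (-0.91), NAC library 1 (-1.12) or NAC library 2 (-1.06). Among the other 20 members 17 fell and the median was again -1.31. Chac1 (gene 69065), which encodes an enzyme that breaks glutathione down, was at 34.0 and 20.4 FPKM in the control libraries and 2.14 and 2.63 FPKM in the NAC libraries. Both NAC libraries lay far below both control libraries (log2 fold change -3.56, SE 0.24, adjusted p = 1.5e-08), and both PQ libraries lay between them, at 5.02 and 4.54 FPKM. Asns (gene 27053), which encodes asparagine synthetase, was at 161 and 98.4 FPKM in the control libraries and 31.4 and 28.0 FPKM in the NAC libraries. The groups did not overlap and stood well apart (log2 fold change -2.17, SE 0.17, adjusted p = 6.6e-08). Trib3, a pseudokinase gene that dampens this pathway, was at 39.2 and 19.2 FPKM in the control libraries and 3.7 and 4.73 FPKM in the NAC libraries. Its NAC values were again the lower pair (log2 fold change -2.84, SE 0.25, adjusted p = 3.1e-07), with a log2 fold change of -2.23 without control library 1. Nupr1, which encodes a small stress-induced chromatin protein, was the most abundant member in the control libraries, at 456 and 220.4 FPKM in the control libraries and 91.5 and 94.3 FPKM in the NAC libraries. Its control libraries differed from each other by more than its NAC libraries did (log2 fold change -1.91, SE 0.21, adjusted p = 3.1e-06), and without control library 1 the log2 fold change was -1.28. Atf4 itself was at 277 and 189.9 FPKM in the control libraries and 101 and 109.9 FPKM in the NAC libraries. Its mRNA fell in NAC, with both NAC libraries below both controls (log2 fold change -1.19, SE 0.13, adjusted p = 3.1e-06).

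The promoters of members that fell are shown because these genes moved together. The letters TGATGNAA, a core that ATF4 dimers bind, were searched on both strands from 250 bases before to 50 bases after each start in RefSeq sequence of GRCm38.p6. They occurred in 1303 of 32841 windows (3.97%) and in 240 of 9336 tested genes with a window (2.57%). Among the members of the ATF4 list that fell, 8 of 17 with a window held them, and among those not called, 0 of 3. Among the synthetase genes described next that had a window, they occurred in 5 of 10 that fell and 0 of 3 not called. Among amino acid transporter genes with a window, they occurred in 1 of 4 that fell, 0 of 3 that rose and 1 of 5 not called. They were absent from the windows of all 19 serine and folate enzyme genes that had one. A match is a description of letters and not a tested site. Capitals mark the match in the promoters of Chac1 (chr2:119350992-119351291, plus strand), Trib3 (chr2:152344011-152344310, minus strand), Asns (chr6:7693160-7693459, minus strand) and Nupr1 (chr7:126625421-126625720, minus strand), and of the synthetase genes Yars (chr4:129189653-129189952, plus strand) and Gars (chr6:55037751-55038050, plus strand). The match of Asns began at position -23 relative to its start, and that of Gars at -30. Without control library 1 the log2 fold changes of Trib3 and Nupr1 were -2.23 and -1.28.
Chac1: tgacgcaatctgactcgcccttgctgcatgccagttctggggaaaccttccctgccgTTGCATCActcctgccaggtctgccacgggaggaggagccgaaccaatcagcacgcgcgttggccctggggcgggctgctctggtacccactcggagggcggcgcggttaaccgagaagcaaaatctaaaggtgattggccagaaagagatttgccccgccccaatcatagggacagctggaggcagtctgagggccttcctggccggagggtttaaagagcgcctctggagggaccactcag
Trib3: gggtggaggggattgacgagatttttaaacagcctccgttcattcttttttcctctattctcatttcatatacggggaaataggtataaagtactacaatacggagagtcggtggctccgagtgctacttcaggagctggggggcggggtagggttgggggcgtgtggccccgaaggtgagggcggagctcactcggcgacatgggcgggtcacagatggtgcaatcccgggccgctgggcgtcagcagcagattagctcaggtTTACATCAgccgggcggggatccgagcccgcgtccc
Asns: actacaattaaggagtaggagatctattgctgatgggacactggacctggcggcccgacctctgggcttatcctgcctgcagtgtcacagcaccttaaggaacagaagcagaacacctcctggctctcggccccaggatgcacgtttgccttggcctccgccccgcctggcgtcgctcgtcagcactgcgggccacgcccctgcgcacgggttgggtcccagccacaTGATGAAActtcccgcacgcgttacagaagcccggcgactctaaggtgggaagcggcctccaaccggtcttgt
Nupr1: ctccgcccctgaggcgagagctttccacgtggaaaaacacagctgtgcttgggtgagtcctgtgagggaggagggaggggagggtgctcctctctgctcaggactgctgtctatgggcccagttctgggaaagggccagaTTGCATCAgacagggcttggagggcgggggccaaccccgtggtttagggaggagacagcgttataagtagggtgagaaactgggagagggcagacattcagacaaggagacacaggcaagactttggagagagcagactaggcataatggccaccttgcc
Yars: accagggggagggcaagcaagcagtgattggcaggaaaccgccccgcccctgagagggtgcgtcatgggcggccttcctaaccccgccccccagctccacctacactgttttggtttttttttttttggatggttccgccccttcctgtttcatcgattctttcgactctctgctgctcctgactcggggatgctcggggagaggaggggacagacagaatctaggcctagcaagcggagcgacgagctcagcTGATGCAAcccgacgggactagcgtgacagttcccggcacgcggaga
Gars: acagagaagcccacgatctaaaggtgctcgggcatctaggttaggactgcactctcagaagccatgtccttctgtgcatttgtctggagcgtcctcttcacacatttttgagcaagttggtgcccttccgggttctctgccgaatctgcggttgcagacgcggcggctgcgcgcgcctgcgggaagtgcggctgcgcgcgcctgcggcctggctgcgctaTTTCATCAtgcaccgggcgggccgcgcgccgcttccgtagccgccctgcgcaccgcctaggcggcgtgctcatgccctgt

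Most other members of the ATF4 list were lower too. Ddit4, which encodes an inhibitor of mTORC1, was at 96.0 and 109 FPKM in the control libraries and 31.2 and 42.2 FPKM in the NAC libraries. Its control and NAC values were well apart (log2 fold change -1.53, SE 0.13, adjusted p = 1.7e-07). Sesn2, whose product senses leucine and restrains mTORC1, was at 20.0 and 14.0 FPKM in the control libraries and 6.17 and 7.56 FPKM in the NAC libraries, and the NAC pair was the lower one (log2 fold change -1.35, SE 0.16, adjusted p = 7.9e-06). Eif4ebp1, which encodes the translation repressor 4E-BP1, was at 189 and 137 FPKM in the control libraries and 60.02 and 75.7 FPKM in the NAC libraries, again without overlap (log2 fold change -1.31, SE 0.14, adjusted p = 1.6e-06). Aldh18a1, which makes the proline precursor, was at 65.8 and 48.8 FPKM in the control libraries and 19.8 and 19.6 FPKM in the NAC libraries. It fell by 1.59 on the log2 scale, and its 2 NAC values were nearly equal. Ddit3, which encodes CHOP, was at 77.5 and 35.0 FPKM in the control libraries and 24.5 and 22.5 FPKM in the NAC libraries. Its fall (log2 fold change -1.31, SE 0.24, adjusted p = 0.00058) was smaller without control library 1 (log2 fold change -0.61). Atf3, at 7.76 and 2.57 FPKM in the control libraries and 1.66 and 1.94 FPKM in the NAC libraries, was called lower with all libraries (log2 fold change -1.57), but was not called without control library 1 (-0.56) and was at -2.16 without control library 2. The stress phosphatase subunit gene Ppp1r15a, at 19.6 and 12.1 FPKM in control against 12.9 and 14.6 FPKM in NAC, and the alanine transaminase gene Gpt2, at 45.6 and 34.5 FPKM in control against 33.2 and 36.5 FPKM in NAC, were not called.

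Control library 1 stood above control library 2 in 19 of the 21 members, with a median log2 ratio of 0.56 against -0.003 over all tested genes. The list summed to 1723 and 1113 FPKM in the control libraries, 538 and 579.6 FPKM in the NAC libraries and 879 and 869.5 FPKM in the PQ libraries. Without control library 1, 16 members fell, 1 rose and the median was -1.05. Of the 18 members that fell, 15 kept the call whichever of the 4 libraries was left out.

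Amino acid transporter genes moved in both directions: of 17 tested, 7 fell, 4 rose and 6 were not called, with a median of -0.24. Over all tested genes 9.01% were called higher and 9.64% lower. Slc7a5, which encodes the large neutral amino acid exchanger LAT1, was at 138 and 78.9 FPKM in the control libraries and 30.1 and 30.4 FPKM in the NAC libraries. The NAC values were close to each other and far below both controls (log2 fold change -1.89, SE 0.17, adjusted p = 3.4e-07). The glycine carrier gene Slc6a9, at 14.3 and 10.2 FPKM in control against 7.31 and 6.91 FPKM in NAC, and the small neutral amino acid carrier gene Slc1a4, at 40.3 and 32.1 FPKM in control against 20.2 and 23.4 FPKM in NAC, fell with smaller log2 fold changes of -0.83 and -0.78. The cystine importer gene Slc7a11 was at 172 and 179 FPKM in the control libraries and 147 and 160.0 FPKM in the NAC libraries, with both NAC values below both control values but no call (adjusted p = 0.056). Slc38a3, which encodes the glutamine carrier SNAT3, went the other way, at 17.7 and 22.2 FPKM in the control libraries and 43.8 and 50.3 FPKM in the NAC libraries. Both of its NAC values stood well above both control values (log2 fold change 1.19, SE 0.12, adjusted p = 1.1e-06). Of the 11 called transporters, 2 that rose and 6 that fell kept the call whichever library was left out.

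Most genes for cytosolic aminoacyl-tRNA synthetases, which load amino acids onto tRNAs, fell. Of 20 tested genes, 16 fell, against 9.64% of all tested genes, 0 rose and 4 were not called, and the median was -0.85. In 19 of the 20, both NAC libraries lay below both control libraries. Cars, the cysteinyl-tRNA synthetase gene, was at 74.3 and 52.5 FPKM in the control libraries and 26.6 and 25.2 FPKM in the NAC libraries. It had the lowest log2 fold change of the 20 (log2 fold change -1.34, SE 0.13, adjusted p = 7e-07). Nars, the asparaginyl enzyme gene, was at 177 and 118 FPKM in the control libraries and 71.6 and 69.4 FPKM in the NAC libraries, and its groups were clearly apart (log2 fold change -1.11, SE 0.14, adjusted p = 9.6e-06). Yars, the tyrosyl enzyme gene, was at 63.9 and 51.4 FPKM in the control libraries and 26.9 and 28.3 FPKM in the NAC libraries, with the same order of the groups (log2 fold change -1.11, SE 0.11, adjusted p = 9.7e-07). Gars, Sars, Mars1, Lars and Aars, for glycine, serine, methionine, leucine and alanine, fell with log2 fold changes of -1.07, -0.99, -0.98, -0.97 and -0.85. The family summed to 1631 and 1252 FPKM in control and 892 and 868 FPKM in NAC. Control library 1 exceeded control library 2 in 16 of the 20 genes, and without it 14 were called lower with a median of -0.50.

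Separate enzymes do this work in mitochondria. Of 17 tested mitochondrial synthetase genes, edgeR called 0, beside 18.7% of all tested genes. DESeq2 and limma also called 0, and 1 of the 17 genes had an unadjusted p under 0.05 in edgeR. Their median was 0.01 and their summed level was 144 and 146 FPKM in control and 146 and 141 FPKM in NAC. Whether the cytosolic and mitochondrial families differed from each other was not tested.

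**Figure D2:**
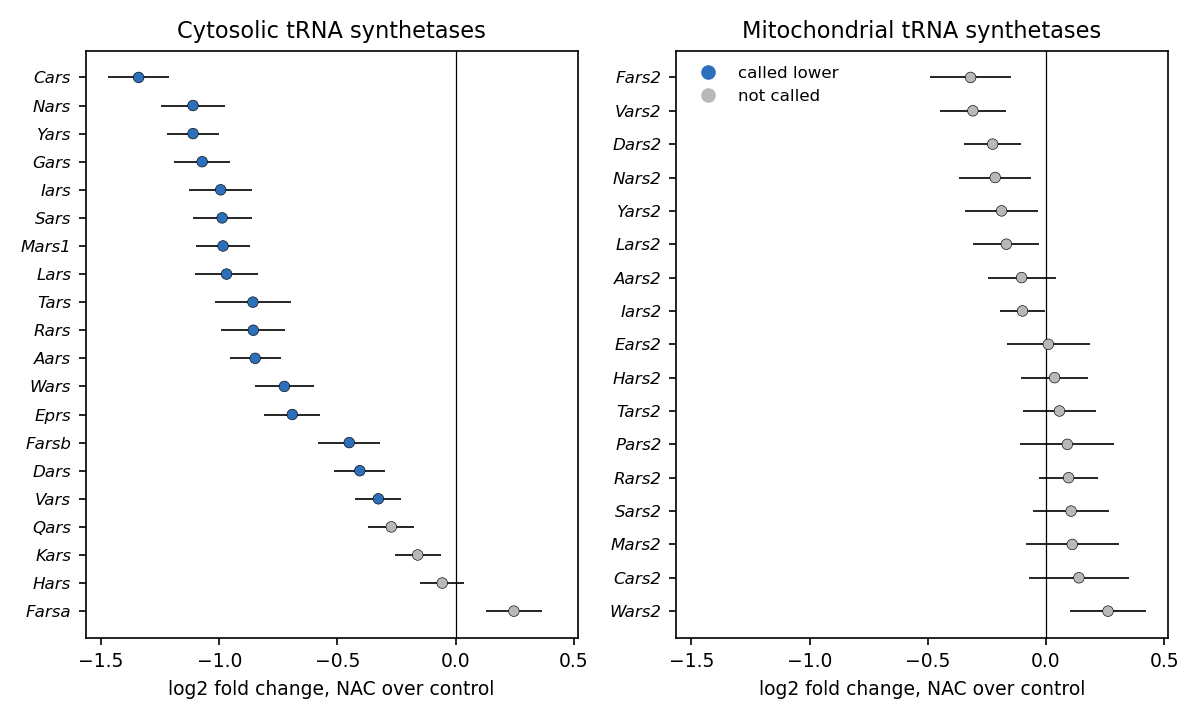
Points give the log2 fold change of NAC over control for each tested cytosolic (left) and mitochondrial (right) aminoacyl-tRNA synthetase gene, with the SE as bars. Of the cytosolic genes 16 of 20 are blue, called lower, and all 17 mitochondrial genes are grey, not called by edgeR.

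Serine synthesis and the folate pathway, which carries single carbons from serine to purines, thymidylate and methionine, fell in part: 8 of 23 tested genes fell, 2 rose and 13 were not called, with a median of -0.09. All 8 that fell did so whichever library was left out. Over all tested genes 9.01% were called higher and 9.64% lower. Mthfd2, a mitochondrial methylene-folate dehydrogenase gene, was at 67.0 and 41.0 FPKM in the control libraries and 17.6 and 15.8 FPKM in the NAC libraries. The NAC libraries sat far below the lower control library (log2 fold change -1.74, SE 0.17, adjusted p = 6.2e-07). Shmt2, the mitochondrial serine hydroxymethyltransferase gene, was at 165 and 125 FPKM in the control libraries and 54.3 and 56.1 FPKM in the NAC libraries, with nearly equal NAC values far below both controls (log2 fold change -1.44, SE 0.12, adjusted p = 9.5e-08). Aldh1l2, which oxidizes formyl-folate in mitochondria, was at 61.2 and 50.1 FPKM in the control libraries and 19.6 and 21.7 FPKM in the NAC libraries, and its groups did not overlap (log2 fold change -1.48, SE 0.11, adjusted p = 6.6e-08). Psph and Psat1, for the last steps of serine synthesis, both fell. Psph was at 53.7 and 36.9 FPKM in control against 19.5 and 21.1 FPKM in NAC, and Psat1 was at 245 and 218 FPKM in control against 136 and 130.4 FPKM in NAC (log2 fold changes -1.21 and -0.85). Shmt1, the cytosolic counterpart of Shmt2, was at 14.8 and 17.8 FPKM in control against 23.3 and 22.1 FPKM in NAC, called higher at 0.44, and lost its call without control library 1 (0.32), NAC library 1 (0.39) or NAC library 2 (0.48).

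Genes of the methionine cycle and of transsulfuration, the route from methionine to cysteine, were called for 5 of 22, 3 higher and 2 lower, near the 18.7% called over all tested genes, with a median of -0.05, and 1 in each direction kept the call whichever library was left out. Cth, which makes cysteine from cystathionine, was at 4.33 and 1.38 FPKM in the control libraries and 0.31 and 0.45 FPKM in the NAC libraries. It was lower in both NAC libraries (log2 fold change -2.94, SE 0.54, adjusted p = 0.0006), with log2 fold changes of -1.89 without control library 1 and -3.55 without control library 2. Cdo1, which oxidizes cysteine to cysteine sulfinate, was at 0.2 and 0.72 FPKM in the control libraries and 1.66 and 2.39 FPKM in the NAC libraries. It was called higher (log2 fold change 2.06, SE 0.48, adjusted p = 0.0048), but lost the call without control library 1 (1.44) or NAC library 2 (1.79), and was at 3.23 without control library 2. Cth and Cdo1 passed the filter through the group in which each was higher, so their calls do not count towards a change of the list. Among the other 20 members 2 rose and 1 fell, with a median of -0.045. Outside these lists, Bcat1, which transaminates branched-chain amino acids, was at 4.76 and 2.48 FPKM in the control libraries and 0.76 and 0.62 FPKM in the NAC libraries. Its control libraries differed, yet both NAC values lay far below the lower of them (log2 fold change -2.42, SE 0.25, adjusted p = 1.6e-06). Bcat1 averaged 0.69 FPKM in NAC and passed the filter through other libraries.

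**Figure D3:**
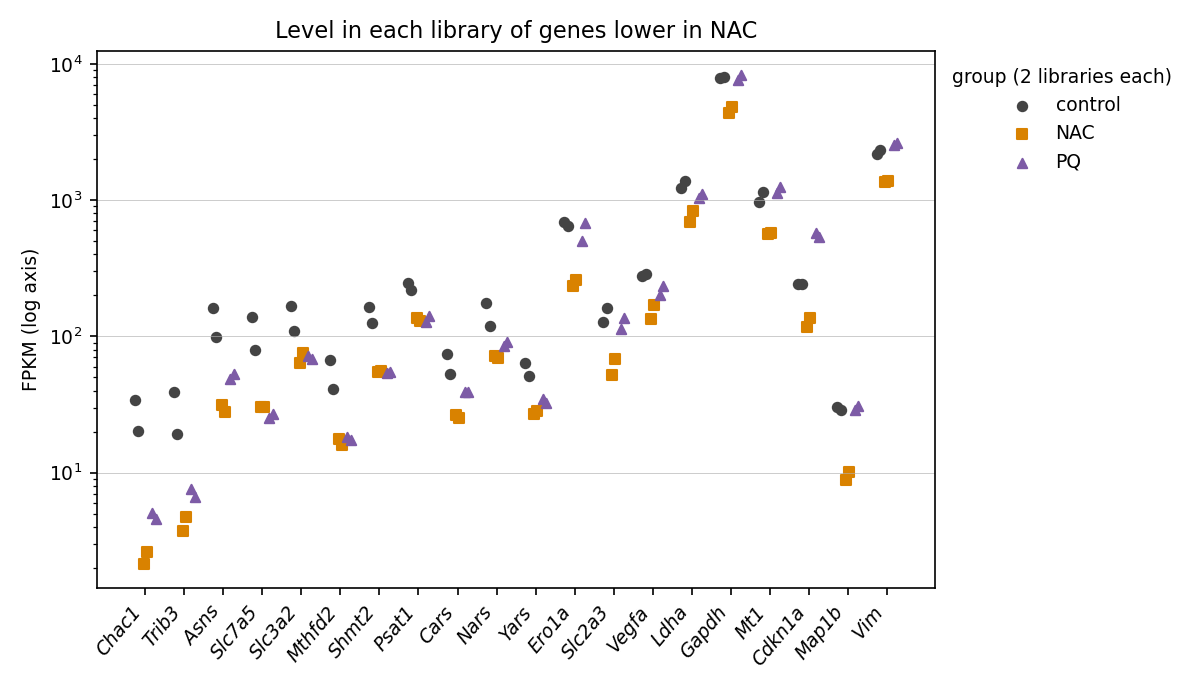
Points give the FPKM (log axis) of genes lower in NAC in each of 2 control, 2 NAC and 2 PQ libraries. For Chac1, Asns and Mthfd2 the PQ points also lie below both control points, whereas for Cdkn1a they lie above both.

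Glycolytic and hypoxia-responsive genes fell nearly throughout. Of 33 tested members, 29 fell, against 9.64% of all tested genes, 1 rose and 3 were not called, with a median of -0.81, and 24 of the 29 kept the call whichever library was left out. In 29 of the 33, both NAC libraries lay below both control libraries. The list summed to 20249 and 22287 FPKM in control, 11873 and 13973 FPKM in NAC and 19587 and 21040.1 FPKM in PQ. P4ha2, a collagen prolyl hydroxylase gene, was at 15.6 and 17.2 FPKM in the control libraries and 3.19 and 5.58 FPKM in the NAC libraries. It had the lowest log2 fold change of the list (log2 fold change -1.96, SE 0.22, adjusted p = 4.7e-06). The glucose transporter gene Slc2a3 was at 127 and 161 FPKM in the control libraries and 52.4 and 68.0 FPKM in the NAC libraries, and its groups did not overlap (log2 fold change -1.31, SE 0.13, adjusted p = 1.1e-06). Egln3, which encodes a hydroxylase that marks HIF subunits for decay, was at 34.7 and 38.0 FPKM in the control libraries and 15.1 and 17.7 FPKM in the NAC libraries, with both NAC values well under both controls (log2 fold change -1.20, SE 0.14, adjusted p = 5.4e-06). Pfkp, a phosphofructokinase gene, was at 62.0 and 63.4 FPKM in the control libraries and 26.6 and 31.2 FPKM in the NAC libraries, again split by treatment (log2 fold change -1.16, SE 0.10, adjusted p = 2.1e-07). Bnip3, which promotes removal of mitochondria, was at 459 and 434 FPKM in the control libraries and 192 and 246 FPKM in the NAC libraries, with NAC library 1 lowest (log2 fold change -1.07, SE 0.12, adjusted p = 4.2e-06).

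Core enzymes fell by less from far higher levels. Gapdh, often used as a loading control, was at 7893 and 8033 FPKM in the control libraries and 4346 and 4817 FPKM in the NAC libraries. It was lower in both NAC libraries (log2 fold change -0.84, SE 0.09, adjusted p = 1.5e-06), and its counts were fractional because reads were shared with related loci, so its level is uncertain. Pgk1, for phosphoglycerate kinase, was at 1232 and 1373 FPKM in the control libraries and 656 and 883 FPKM in the NAC libraries, and NAC library 2 stood above NAC library 1 but below both controls (log2 fold change -0.81, SE 0.12, adjusted p = 8.3e-05). Tpi1 and Aldoa, for triosephosphate isomerase and aldolase A, fell with log2 fold changes of -0.82 and -0.75. Pkm, which makes pyruvate, was at 1712 and 1853 FPKM in control against 1142 and 1312 FPKM in NAC, a log2 fold change of -0.58. Hif1a mRNA was at 158 and 129.9 FPKM in control against 115 and 105 FPKM in NAC. It was called lower (-0.43), but not without control library 1 (-0.28) or NAC library 2 (-0.36). The member that rose was Aldoc, the brain aldolase gene that astrocytes also express, at 41.8 and 46.5 FPKM in the control libraries and 96.6 and 97.3 FPKM in the NAC libraries. Replicates were close and the NAC pair was the higher one (log2 fold change 1.09, SE 0.10, adjusted p = 3.6e-07). Ero1a, an ER oxidase gene that hypoxia also induces, was at 689 and 651 FPKM in the control libraries and 233 and 261 FPKM in the NAC libraries. It was among the abundant genes that fell most, with no overlap of groups (log2 fold change -1.49, SE 0.12, adjusted p = 9.5e-08).

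Genes that handle glutathione were lower where called: of 17 tested, 7 fell, against 9.64% of all tested genes, 0 rose and 10 were not called, with a median of -0.23. Gpx1, the selenium-dependent peroxidase gene, was at 90.4 and 90.9 FPKM in the control libraries and 53.01 and 48.5 FPKM in the NAC libraries. Its 2 control values were nearly equal and both NAC values were lower (log2 fold change -0.88, SE 0.10, adjusted p = 5.1e-06). Gclc, the catalytic subunit gene of glutamate-cysteine ligase, was at 43.3 and 43.7 FPKM in the control libraries and 33.6 and 32.6 FPKM in the NAC libraries, a smaller separation (log2 fold change -0.44, SE 0.10, adjusted p = 0.0039). Abcc1, which exports glutathione conjugates, was at 9.72 and 11.2 FPKM in the control libraries and 5.64 and 6.16 FPKM in the NAC libraries, lower in both NAC libraries (log2 fold change -0.87, SE 0.12, adjusted p = 2.3e-05). Of the 7, 4 kept the call whichever library was left out, and without control library 1 the list had 4 lower members.

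NRF2 pathway genes were called in both directions, 5 higher and 6 lower of 28, with a median of -0.02, beside 9.01% higher and 9.64% lower over all tested genes. Sqstm1, for the autophagy receptor p62, was at 126 and 131 FPKM in the control libraries and 178 and 188 FPKM in the NAC libraries, higher in both NAC libraries (log2 fold change 0.46, SE 0.09, adjusted p = 0.0017). Mgst1, a membrane glutathione transferase gene, was at 37.1 and 31.2 FPKM in the control libraries and 54.5 and 58.9 FPKM in the NAC libraries and rose (log2 fold change 0.68, SE 0.12, adjusted p = 0.00031). Ephx1, for microsomal epoxide hydrolase, was at 177 and 185 FPKM in the control libraries and 137 and 135 FPKM in the NAC libraries and fell (log2 fold change -0.46, SE 0.09, adjusted p = 0.00096). Hmox1, for heme oxygenase 1, was at 37.2 and 40.2 FPKM in the control libraries and 27.0 and 31.5 FPKM in the NAC libraries. It was called lower at -0.45, but not without NAC library 1 (-0.35). The NRF2 core letters TGACNNNGC, searched in the same windows and on both strands, occurred in 12.4% of all windows and 16.9% of tested genes with a window. Among list members with a window, they occurred in 1 of 5 that fell, 2 of 5 that rose and 6 of 16 not called. Among the called genes, 2 of the 5 that rose and 3 of the 6 that fell kept the call whichever library was left out.

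The list of NADPH-producing enzymes, whose product reduces glutathione and thioredoxin, also held genes for enzymes that do not make NADPH themselves. Among these were the pentose phosphate genes Tkt and Taldo1, both called lower. Of 12 tested members, 5 fell, against 9.64% of all tested genes, with 0 higher and a median of -0.11. Me2, a mitochondrial malic enzyme gene, was at 39.6 and 44.0 FPKM in the control libraries and 24.4 and 23.7 FPKM in the NAC libraries, its NAC values far under its controls (log2 fold change -0.84, SE 0.10, adjusted p = 1.2e-05). G6pdx, for the enzyme that opens the pentose phosphate pathway, was at 64.6 and 70.9 FPKM in the control libraries and 47.9 and 48.2 FPKM in the NAC libraries and also fell (log2 fold change -0.54, SE 0.09, adjusted p = 0.00035). Idh2 and Tkt fell with log2 fold changes of -0.68 and -0.61.

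Superoxide dismutase, peroxiredoxin and thioredoxin genes were called for 6 of 22, 2 higher and 4 lower, beside 18.7% called over all tested genes, with a median of 0.03. The number lower was 1 without control library 2 or without NAC library 1, and 1 of the 4 kept the call whichever library was left out, as did both that rose. Txn1, for thioredoxin itself, was at 157 and 156 FPKM in the control libraries and 262 and 276 FPKM in the NAC libraries. The control values were nearly equal and both NAC values stood above them (log2 fold change 0.74, SE 0.09, adjusted p = 1.1e-05). Sod2, the mitochondrial dismutase gene, was at 21.1 and 21.5 FPKM in control against 21.2 and 20.4 FPKM in NAC with fractional counts, and was not called. Selenow, for a small selenoprotein, was at 265 and 279 FPKM in the control libraries and 142 and 164 FPKM in the NAC libraries and fell (log2 fold change -0.87, SE 0.10, adjusted p = 3.9e-06). Selenop, for the secreted selenium carrier, was at 24.7 and 24.7 FPKM in the control libraries and 132 and 117 FPKM in the NAC libraries. It rose more than any other of the abundant genes (log2 fold change 2.29, SE 0.10, adjusted p = 9.2e-11), and the PQ libraries were at 41.6 and 37.9 FPKM.

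Metallothioneins, small cysteine-rich proteins that bind zinc and copper, fell together. Mt1 was at 970.3 and 1143 FPKM in the control libraries and 567 and 572 FPKM in the NAC libraries, and the NAC values were the lower pair by a wide margin (log2 fold change -0.94, SE 0.10, adjusted p = 1.6e-06). Mt2 was at 745 and 789 FPKM in the control libraries and 373 and 441 FPKM in the NAC libraries, again with lower NAC values (log2 fold change -0.96, SE 0.10, adjusted p = 2e-06). Mt3, the brain form, was at 111 and 121 FPKM in the control libraries and 71.2 and 71.5 FPKM in the NAC libraries, with nearly equal NAC values (log2 fold change -0.74, SE 0.11, adjusted p = 7.9e-05). In the whole list of metallothioneins and zinc carriers, 4 of 19 fell, 1 rose and 14 were not called, with a median of -0.05, beside 9.64% lower and 9.01% higher over all tested genes. The fourth that fell was Slc30a4, for a zinc exporter into vesicles, at 46.6 and 41.7 FPKM in control against 32.6 and 31.4 FPKM in NAC (log2 fold change -0.51). The zinc importer gene Slc39a10, at 24.8 and 26.2 FPKM in control against 35.1 and 32.6 FPKM in NAC, was called higher (0.36), but not without control library 1 (0.33) or NAC library 1 (0.30).

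The promoters of Mt2 and Mt1 are shown because both genes fell and both hold TGCRCNC, the core letters of metal response elements, where R is A or G. They were searched on both strands in the RefSeq windows of GRCm38.p6 and are common, in 25.7% of all windows and 41.5% of tested genes with a window. Among members of the zinc list with a window, they occurred in 4 of 4 that fell, 0 of 1 that rose and 5 of 12 not called. The looser letters TGCNCNC occurred in 51% of all windows and 64.5% of tested genes with a window, and in 4 of 4 that fell, 1 of 1 that rose and 9 of 12 not called. The stricter letters were searched after the looser ones had been counted, and of them Mt2 (chr8:94172368-94172667, plus strand) held 4 matches and Mt1 (chr8:94178839-94179138, plus strand) held 3, in capitals.
Mt2: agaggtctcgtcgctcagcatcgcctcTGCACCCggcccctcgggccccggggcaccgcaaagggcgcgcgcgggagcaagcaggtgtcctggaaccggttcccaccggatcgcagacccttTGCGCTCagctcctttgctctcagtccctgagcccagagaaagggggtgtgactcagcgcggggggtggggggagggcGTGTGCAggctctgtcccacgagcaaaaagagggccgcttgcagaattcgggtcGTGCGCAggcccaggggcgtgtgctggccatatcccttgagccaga
Mt1: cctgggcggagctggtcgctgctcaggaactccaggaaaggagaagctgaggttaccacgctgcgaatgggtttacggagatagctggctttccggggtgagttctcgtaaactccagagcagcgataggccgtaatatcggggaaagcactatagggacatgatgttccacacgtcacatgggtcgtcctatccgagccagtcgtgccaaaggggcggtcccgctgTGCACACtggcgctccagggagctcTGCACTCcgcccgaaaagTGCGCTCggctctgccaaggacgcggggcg

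Copper and iron genes were called for 5 of 21, 2 higher and 3 lower, near the 18.7% called over all tested genes, with a median of -0.02, and 1 of the 2 and 2 of the 3 kept the call whichever library was left out. Cp, for the copper oxidase ceruloplasmin, was at 181 and 166 FPKM in the control libraries and 307 and 288 FPKM in the NAC libraries, higher in both NAC libraries (log2 fold change 0.75, SE 0.09, adjusted p = 8.7e-06). Steap3, for a ferric reductase of endosomes, was at 11.2 and 12.3 FPKM in the control libraries and 5.93 and 7.05 FPKM in the NAC libraries and fell (log2 fold change -0.90, SE 0.15, adjusted p = 0.00024). Steap4, for a plasma membrane metalloreductase that was not in the list, was at 14.8 and 13.2 FPKM in the control libraries and 76.6 and 74.5 FPKM in the NAC libraries. Its NAC values were 5.21-fold its control values in the fit (log2 fold change 2.38, SE 0.11, adjusted p = 1e-10).

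Targets of p53 that arrest the cycle or feed back on p53 fell for 9 of 28 tested genes, with 2 higher, 17 not called and a median of -0.20; 4 of the 9 and 1 of the 2 kept the call whichever library was left out. Over all tested genes 9.01% were called higher and 9.64% lower. Cdkn1a, for the CDK inhibitor p21, was at 243 and 242 FPKM in the control libraries and 118 and 136 FPKM in the NAC libraries. Its control values were nearly equal and its NAC values far lower (log2 fold change -0.98, SE 0.09, adjusted p = 6.1e-07), while the PQ values were higher than either, at 576 and 536 FPKM. Ccng1, for cyclin G1, was at 89.5 and 78.3 FPKM in the control libraries and 65.7 and 56.6 FPKM in the NAC libraries and fell (log2 fold change -0.50, SE 0.10, adjusted p = 0.0015). Fas, for the death receptor, was at 4.96 and 6.36 FPKM in the control libraries and 11.7 and 11.5 FPKM in the NAC libraries and rose (log2 fold change 0.96, SE 0.17, adjusted p = 0.00037).

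Of 35 replication and S-phase genes, 4 rose and 1 fell, with a median of 0.17, where 9.01% of all tested genes were called higher and 9.64% lower. An unadjusted p under 0.05 was found for 18 of the 35. Without control library 1 or without NAC library 1 the number that rose was 0, without control library 2 it was 10 and without NAC library 2 it was 3. Of 35 mitosis genes, 0 rose and 1 fell, with a median of 0.06; without control library 2, 2 rose and 2 fell. The mitosis gene that fell was Anln, for the cytokinesis scaffold anillin, at 66.2 and 63.6 FPKM in the control libraries and 47.2 and 44.5 FPKM in the NAC libraries (log2 fold change -0.55, SE 0.10, adjusted p = 0.00063). Of 15 G1 cyclin and CDK genes, 1 rose and 1 fell, and the number lower was 0 without NAC library 1 and 2 without either control library. The one that rose was Myc, a growth regulator included in that list although it is neither a cyclin nor a CDK. It was at 32.1 and 36.9 FPKM in the control libraries and 57.2 and 59.4 FPKM in the NAC libraries (log2 fold change 0.71, SE 0.10, adjusted p = 4.1e-05).

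Of 19 AP-1 and EGR genes, which respond early to signals, 4 rose and 3 fell, beside 9.01% higher and 9.64% lower over all tested genes; the 4 that rose kept the call whichever library was left out, and 0 of the 3 that fell did. Fos, for an AP-1 subunit, was at 4.2 and 5.02 FPKM in the control libraries and 9.64 and 13.5 FPKM in the NAC libraries, with both NAC values above both controls and further apart from each other (log2 fold change 1.28, SE 0.18, adjusted p = 3.8e-05). Egr2, a zinc finger factor gene, was at 3.4 and 2.67 FPKM in the control libraries and 7.46 and 8.9 FPKM in the NAC libraries, also higher in NAC (log2 fold change 1.38, SE 0.17, adjusted p = 1e-05). Junb and Egr1 rose with log2 fold changes of 0.70 and 0.55. Of 24 ERK feedback genes and ETV factors, which ERK signalling induces, 7 rose and 2 fell, beside the same shares over all tested genes, with a median of 0.22. Spry1, for a Sprouty inhibitor of receptor signalling, was at 50.2 and 48.8 FPKM in the control libraries and 94.0 and 93.3 FPKM in the NAC libraries, with close replicates and no overlap (log2 fold change 0.87, SE 0.09, adjusted p = 2.3e-06). Dusp6, for an ERK phosphatase, was at 75.2 and 75.4 FPKM in the control libraries and 122 and 120.2 FPKM in the NAC libraries and rose (log2 fold change 0.64, SE 0.09, adjusted p = 3.7e-05). The EGF receptor ligand genes Hbegf, at 91.6 and 84.7 FPKM in control against 49.4 and 50.7 FPKM in NAC, and Areg, at 43.0 and 34.4 FPKM in control against 22.8 and 22.5 FPKM in NAC, were the 2 that fell (log2 fold changes -0.86 and -0.82). Of the 7 that rose, 3 kept the call whichever library was left out.

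Chemokine and NF-kB target genes were called higher for 11 of 20, against 9.01% of all tested genes, and lower for 1, with a median of 0.38; without NAC library 2 the number higher was 6. Nfkbia, for the inhibitor that NF-kB itself induces, was at 39.6 and 34.9 FPKM in the control libraries and 66.4 and 64.8 FPKM in the NAC libraries. Both NAC libraries lay above both controls (log2 fold change 0.77, SE 0.10, adjusted p = 3.1e-05). Lcn2, for an iron-siderophore carrier of innate immunity, was at 82.8 and 68.3 FPKM in the control libraries and 152 and 162 FPKM in the NAC libraries, about 2.01-fold higher in NAC (log2 fold change 1.01, SE 0.12, adjusted p = 5.4e-06). Cxcl1, a neutrophil chemokine gene, was at 94.6 and 57.0 FPKM in the control libraries and 159.6 and 162 FPKM in the NAC libraries, where the controls differed more than the NAC libraries (log2 fold change 1.04, SE 0.15, adjusted p = 7.6e-05). The member that fell was Nos2, for the inducible nitric oxide synthase, at 7.18 and 9.05 FPKM in the control libraries and 2.63 and 4.12 FPKM in the NAC libraries (log2 fold change -1.32, SE 0.18, adjusted p = 3.4e-05). Cd14, for a co-receptor of bacterial lipids outside this list, was at 3.15 and 2.55 FPKM in the control libraries and 20.7 and 21.6 FPKM in the NAC libraries, low in control and well above it in both NAC libraries (log2 fold change 2.84, SE 0.19, adjusted p = 1.6e-08). Tslp, a cytokine gene, was at 178 and 120.3 FPKM in the control libraries and 469 and 517 FPKM in the NAC libraries and was among the abundant genes that rose most (log2 fold change 1.68, SE 0.13, adjusted p = 8.7e-08).

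Interferon-stimulated genes were called for 12 of 38, 10 higher and 2 lower, with a median of 0.12, beside 9.01% higher and 9.64% lower over all tested genes. The list summed to 1036 and 913 FPKM in control and 1094 and 1013 FPKM in NAC. Most of each sum was B2m, at 647 and 531 FPKM in control and 612 and 537 FPKM in NAC, so the sums say little about the other members. Gbp2, for a guanylate-binding protein, was at 11.8 and 10.0 FPKM in the control libraries and 49.4 and 48.9 FPKM in the NAC libraries. The NAC values were 4.37-fold higher in the fit (log2 fold change 2.13, SE 0.12, adjusted p = 8.7e-10), although reads were shared with related family members, which makes its level uncertain. Parp14, for an ADP-ribosyltransferase, was at 4.21 and 3.71 FPKM in the control libraries and 7.76 and 7.22 FPKM in the NAC libraries and rose (log2 fold change 0.87, SE 0.12, adjusted p = 4.5e-05). Isg20, for an exonuclease that degrades single-stranded RNA, was at 3.01 and 4.28 FPKM in the control libraries and 1.59 and 1.03 FPKM in the NAC libraries and fell (log2 fold change -1.65, SE 0.34, adjusted p = 0.0017). Dhx58, for the RNA sensor LGP2, was at 3.76 and 3.16 FPKM in the control libraries and 1.23 and 1.45 FPKM in the NAC libraries and fell as well (log2 fold change -1.41, SE 0.23, adjusted p = 0.0002). Isg15, for a ubiquitin-like modifier, was at 32.1 and 32.2 FPKM in control against 28.0 and 26.7 FPKM in NAC. Usp18, for a protease that removes that modifier, was at 5.74 and 6.19 FPKM in control against 7.56 and 5.88 FPKM in NAC. Neither was called, and the counts of Isg15 were fractional. Ifnb1, for interferon beta, was listed with 0 and 0 FPKM in control and 0.13 and 0 FPKM in NAC.

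Genes that the study discusses around interferon and FOXO3 were read next, and most were either not called or below the filter. Foxo3 was at 9.91 and 12.9 FPKM in the control libraries and 9.42 and 11.3 FPKM in the NAC libraries and was not called. Pik3ip1, for an inhibitor of PI3 kinase, was at 8.38 and 8.57 FPKM in the control libraries and 11.8 and 15.2 FPKM in the NAC libraries. It was called higher (0.62), but not without NAC library 2 (0.44). Sting1, for the DNA-sensing adaptor STING, was at 43.2 and 45.3 FPKM in the control libraries and 71.8 and 77.4 FPKM in the NAC libraries, higher in both NAC libraries (log2 fold change 0.71, SE 0.10, adjusted p = 6.5e-05). Sesn3, Cgas, Icmt, Mat2a and Ifnar2 were not called, with log2 fold changes of 0.17, 0.47, -0.36, -0.003 and -0.05. Gnmt, Socs1 and Mx1 were below the filter. Among 19 lamins and nuclear envelope genes, 4 rose and 3 fell, with a median of -0.07, beside 9.01% higher and 9.64% lower over all tested genes. Without NAC library 2, 2 rose and 1 fell, and 1 in each direction kept the call whichever library was left out. Lmna, for lamins A and C, was at 87.3 and 81.6 FPKM in the control libraries and 42.3 and 46.0 FPKM in the NAC libraries, with both NAC values far below both controls (log2 fold change -0.98, SE 0.10, adjusted p = 1.1e-06). Lmnb1, for lamin B1, was at 70.3 and 73.2 FPKM in the control libraries and 104 and 91.9 FPKM in the NAC libraries. It was called higher (0.41), but not without NAC library 1 (0.30).

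Lineage genes were read in bulk RNA, in which fewer cells of a type and less RNA per cell cannot be told apart. Of 19 neural stem cell genes, 2 rose, 4 fell and 13 were not called, beside 9.01% higher and 9.64% lower over all tested genes, with a median of 0.01, and 1 in each direction kept the call whichever library was left out. Vim was at 2171 and 2323 FPKM in the control libraries and 1362 and 1389 FPKM in the NAC libraries, clearly lower in both NAC libraries (log2 fold change -0.75, SE 0.08, adjusted p = 3.8e-06). Id3, for an inhibitor of bHLH factors, was at 32.1 and 35.7 FPKM in the control libraries and 51.7 and 59.6 FPKM in the NAC libraries and rose (log2 fold change 0.67, SE 0.13, adjusted p = 0.00085). Of 18 astrocyte lineage genes, 7 rose and 3 fell. One of the 7, Aqp4, passed the filter through the NAC libraries and does not count towards the list; among the other 17 members 6 rose and 3 fell, beside those shares, with a median of 0.04. These 6 kept the call whichever library was left out, and 1 of the 3 that fell did. Apoe, for the lipid carrier, was at 12.8 and 10.2 FPKM in the control libraries and 43.6 and 48.6 FPKM in the NAC libraries, with the NAC values 3.88-fold higher in the fit (log2 fold change 1.96, SE 0.17, adjusted p = 1.7e-07). Aqp4, the water channel gene of astrocyte endfeet, was at 0.79 and 0.7 FPKM in the control libraries and 2.66 and 2.56 FPKM in the NAC libraries, a low level in every library (log2 fold change 1.76, SE 0.22, adjusted p = 1.4e-05). Gfap was at 1.64 and 2.2 FPKM in the control libraries and 4.07 and 5.14 FPKM in the NAC libraries, also low and higher in NAC (log2 fold change 1.23, SE 0.21, adjusted p = 0.00031). Atp1b2, for a glial sodium pump subunit, was far more abundant, at 83.2 and 96.9 FPKM in the control libraries and 189 and 204 FPKM in the NAC libraries (log2 fold change 1.08, SE 0.10, adjusted p = 3.6e-07). Gja1, for connexin 43, was at 128 and 124 FPKM in the control libraries and 97.7 and 96.0 FPKM in the NAC libraries and fell (log2 fold change -0.43, SE 0.09, adjusted p = 0.0022).

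Oligodendrocyte lineage genes that did not pass the filter through the NAC libraries alone rose for 5 of 10, against 9.01% of all tested genes, and fell for 0, with a median of 0.32, and 3 of the 5 kept the call whichever library was left out. Lhfpl3, expressed in oligodendrocyte precursors, was at 2.9 and 3.11 FPKM in the control libraries and 20.8 and 23.3 FPKM in the NAC libraries. Replicates were close, and the NAC values were 7.09-fold higher in the fit (log2 fold change 2.83, SE 0.14, adjusted p = 1.3e-10). Sox8, for a SoxE factor, was at 34.5 and 32.5 FPKM in the control libraries and 67.8 and 68.0 FPKM in the NAC libraries, with almost equal NAC values above both controls (log2 fold change 0.97, SE 0.11, adjusted p = 3.1e-06). Olig1, a lineage factor gene, was at 320.4 and 414 FPKM in the control libraries and 454 and 554 FPKM in the NAC libraries. It was called higher (0.41), but not without control library 1 (0.24) or NAC library 2 (0.27). Pdgfra, for the receptor of precursors, was at 8.92 and 9.94 FPKM in control against 11.8 and 13.9 FPKM in NAC. Its call (0.40) was also lost without control library 1 (0.33) or NAC library 2 (0.29).

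Neuronal and neurite genes fell for 7 of 16 and rose for 3, with a median of -0.23, beside 9.64% lower and 9.01% higher over all tested genes. Map1b, for a microtubule-associated protein of growing axons, was at 30.4 and 28.8 FPKM in the control libraries and 8.85 and 10.1 FPKM in the NAC libraries. Both NAC values lay far below both controls, a fall of 3.22-fold in the fit (log2 fold change -1.69, SE 0.10, adjusted p = 2e-09). The neurofilament genes Nefm, at 22.7 and 23.2 FPKM in control against 9.58 and 14.4 FPKM in NAC, and Nefl, at 38.8 and 42.6 FPKM in control against 16.5 and 26.2 FPKM in NAC, fell with log2 fold changes of -0.99 and -0.98. Cd24a, for a surface glycoprotein of neuroblasts, was at 147 and 158 FPKM in the control libraries and 83.9 and 80.0 FPKM in the NAC libraries and fell (log2 fold change -0.95, SE 0.09, adjusted p = 7.4e-07). In the other direction, Gap43, for a growth cone protein, was at 3.98 and 3.52 FPKM in the control libraries and 8.77 and 9.4 FPKM in the NAC libraries (log2 fold change 1.23, SE 0.20, adjusted p = 0.00024). Map2, for a dendritic microtubule protein, was at 35.6 and 34.2 FPKM in the control libraries and 64.9 and 58.0 FPKM in the NAC libraries and rose (log2 fold change 0.77, SE 0.10, adjusted p = 1.1e-05). Tubb3, for a neuronal tubulin, was below the filter, at 2.38 and 1.3 FPKM in the control libraries and 0.32 and 0.44 FPKM in the NAC libraries.

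**Figure D4:**
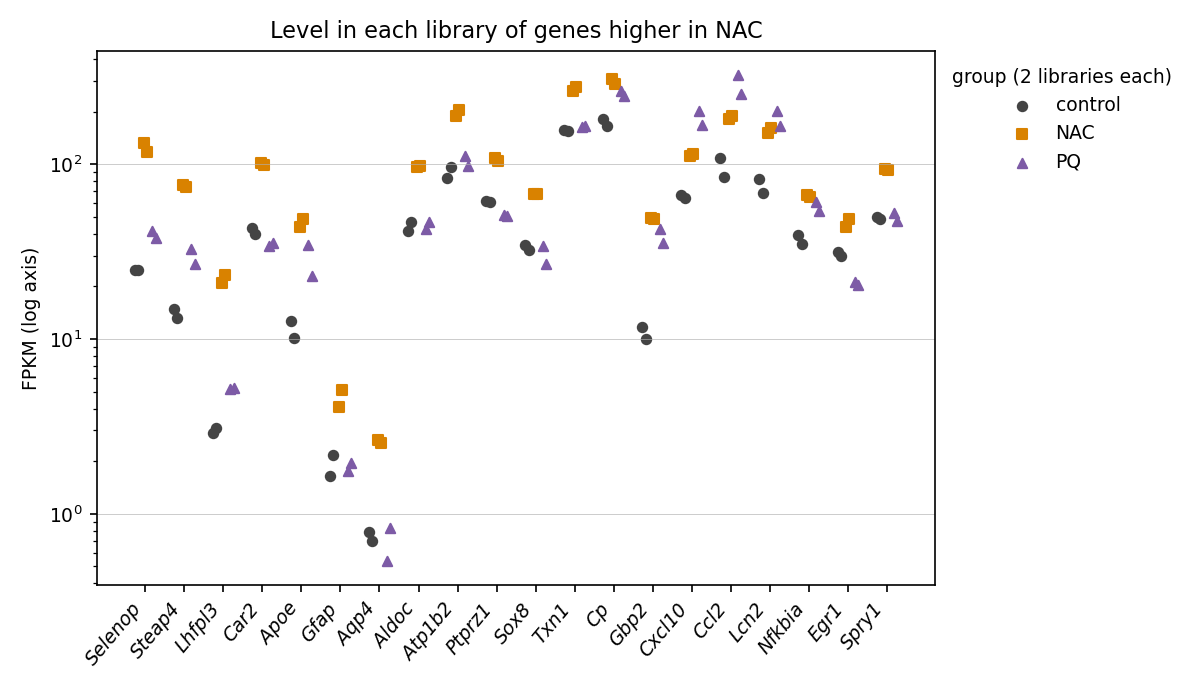
Points give the FPKM (log axis) of genes higher in NAC in each of 2 control, 2 NAC and 2 PQ libraries. For Gfap, Aldoc and Sox8 the PQ points lie near the control points, whereas for Cxcl10 and Ccl2 they lie above the NAC points.

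Matrix and adhesion genes were called for 20 of 30, 13 lower and 7 higher, with a median of -0.27, beside 9.64% lower and 9.01% higher over all tested genes. Sparc, for a collagen-binding matrix protein, was at 394 and 422 FPKM in the control libraries and 207 and 211 FPKM in the NAC libraries, with close replicates and lower NAC values (log2 fold change -1.01, SE 0.09, adjusted p = 1.9e-07). Fn1, for fibronectin, was at 104 and 118 FPKM in the control libraries and 54.1 and 62.8 FPKM in the NAC libraries and fell (log2 fold change -0.98, SE 0.10, adjusted p = 1.5e-06). Plod2, a collagen lysyl hydroxylase gene, was at 170.3 and 165 FPKM in the control libraries and 91.2 and 98.9 FPKM in the NAC libraries and fell too (log2 fold change -0.87, SE 0.10, adjusted p = 8.9e-06). Other members rose. Bcan, for the proteoglycan brevican, was at 50.7 and 56.1 FPKM in the control libraries and 79.5 and 90.9 FPKM in the NAC libraries (log2 fold change 0.67, SE 0.10, adjusted p = 0.00013). Col11a1, for a fibrillar collagen chain, was at 23.1 and 25.3 FPKM in the control libraries and 46.4 and 48.0 FPKM in the NAC libraries, with no overlap between groups (log2 fold change 0.92, SE 0.10, adjusted p = 1.8e-06). Of the 20, 5 that rose and 7 that fell kept the call whichever library was left out.

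Changes were also seen outside the lists. Car2, for carbonic anhydrase 2, was at 43.4 and 39.8 FPKM in the control libraries and 102 and 99.3 FPKM in the NAC libraries, and Acsbg1, for a fatty acyl-CoA ligase of brain, was at 70.1 and 72.2 FPKM in the control libraries and 152 and 161 FPKM in the NAC libraries. Both rose (log2 fold changes 1.23 and 1.09). Adssl1, for an adenylosuccinate synthase, was at 6.44 and 6.98 FPKM in the control libraries and 1.4 and 1.4 FPKM in the NAC libraries, a fall with equal NAC values (log2 fold change -2.30, SE 0.21, adjusted p = 3.4e-07). Lipg, for endothelial lipase, was at 16.3 and 14.4 FPKM in the control libraries and 4.32 and 3.6 FPKM in the NAC libraries and fell (log2 fold change -2.0, SE 0.14, adjusted p = 3e-08). Dap, for a death-associated protein, was at 102 and 106 FPKM in the control libraries and 43.3 and 45.0 FPKM in the NAC libraries and fell (log2 fold change -1.28, SE 0.10, adjusted p = 7.7e-08). Genes absent from a whole group had fractional counts shared with similar loci, so their values are uncertain. Gm2026 was listed at 0 in both control libraries and at 2.74 and 3.98 FPKM in the NAC libraries, at least 49.4-fold higher against a floor of 3 counts per library. H2ac12, a histone gene, was at 0 in both control libraries and 4.85 and 7.18 FPKM in NAC, at least 6.76-fold higher, and DESeq2 did not call it. Mir546 was at 9.15 and 16.7 FPKM in control and 0 in NAC, at least 3.91-fold lower.

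**Figure D5:**
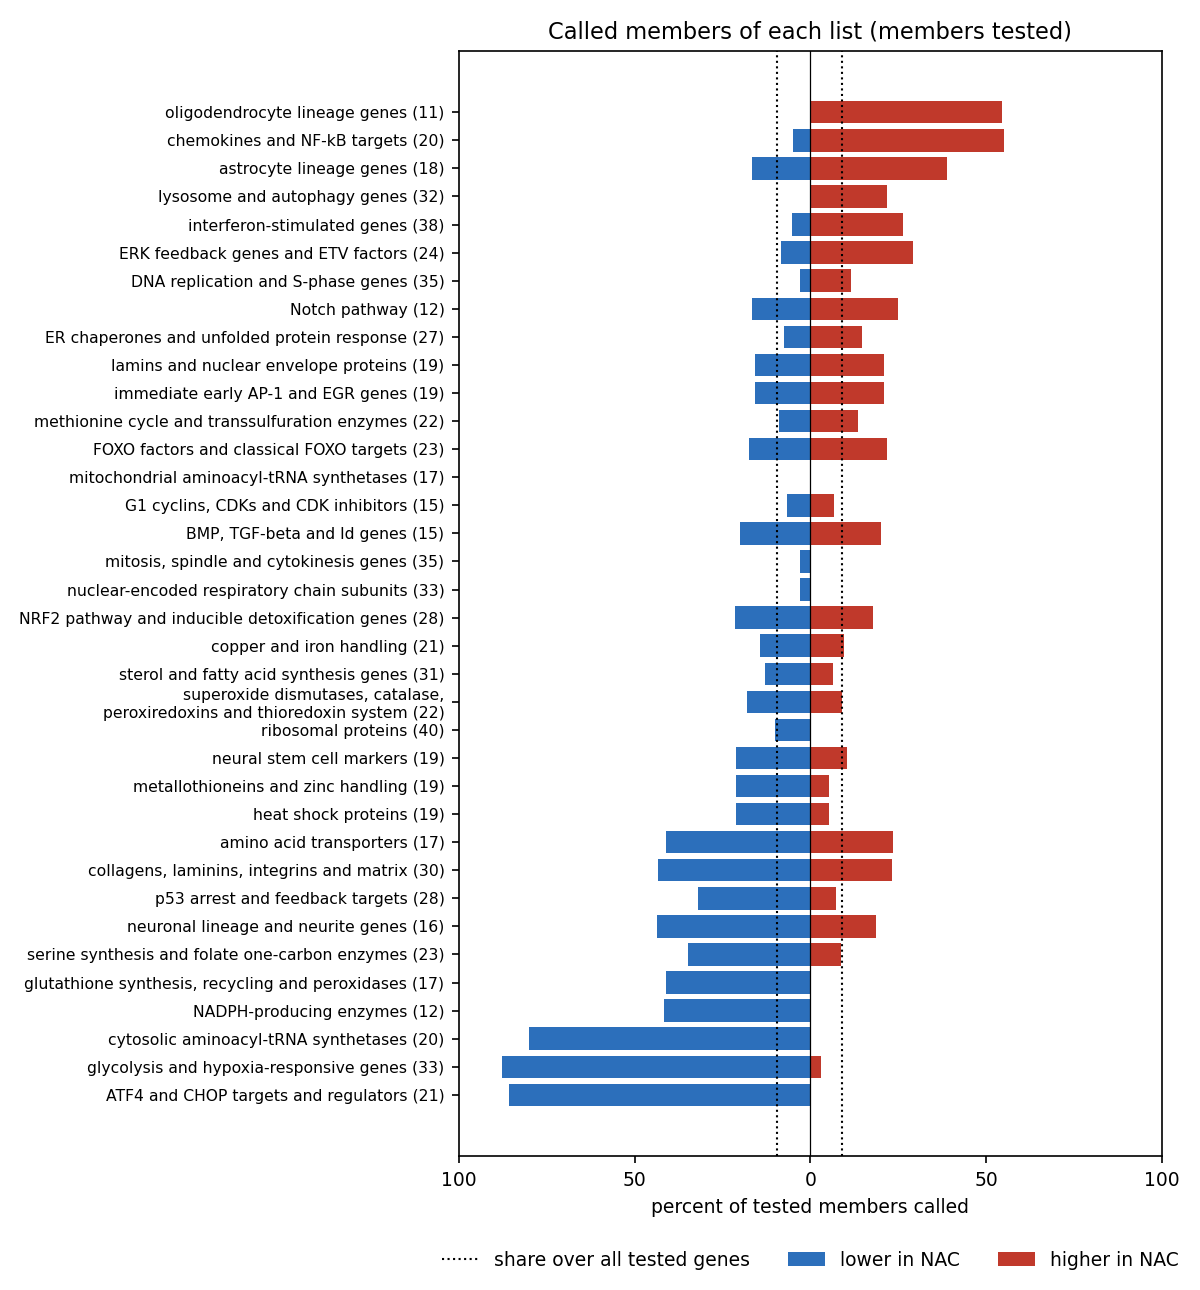
Bars give the percent of tested members that edgeR called lower (left, blue) or higher (right, red) in NAC, for lists with more than 10 tested genes, with the number tested in brackets and dotted lines at the shares over all tested genes. The ATF4, cytosolic synthetase and glycolysis lists reach furthest to the left, and the chemokine and oligodendrocyte lists furthest to the right.

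Across the 37 lists, 813 different genes were tested and 291 of them were called, beside 18.7% called over all tested genes. Genes named within lists and families were chosen after their values were seen.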

How the data were processed

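Each of 2 control, 2 NAC and 2 PQ libraries was read as 1 table. Per the submitters' processing notes, reads of control library 1 were handled with cutadapt, TopHat2 2.0.11 and Cufflinks 2.1.1, and those of the BGISEQ-500 libraries with HISAT2 2.0.4, Bowtie2 2.2.5 and RSEM. The deposited tables of all 6 libraries have the same form and list transcripts identically. The authors deposited expected counts per gene, which are fractional where reads are shared between loci, and FPKM per gene, which are scaled for length and depth. Gene names came from GRCm38.p6 and matched 99.7% of genes.

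Genes averaging 1 FPKM or more over the 6 libraries were kept. Rounded expected counts of all 6 libraries were fitted with edgeR 4.0.16 (R 4.3.3) by TMM and the quasi-likelihood F-test. P-values were adjusted by Benjamini-Hochberg over all tested genes, and SE was computed from the log2 fold change and F. Fractional counts in at least 1 library occurred in 2718 tested genes (23.2%). Alternatives were other normalization, no filter, 4 libraries alone, protocol or replicate terms, each library left out, DESeq2 1.42.0 and limma 3.58.1 on log2(FPKM + 1) and log2(FPKM + 0.1). The scripts were tested on simulated data. Genes named by rule were drawn from the 15 largest falls and rises among called genes whose groups did not overlap, and the 10 largest each way among those averaging 50 FPKM or more, and other named genes were chosen after their values were seen; the 37 lists and the comparison were chosen with earlier results of these data known.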

Additional observations from a re-analysis of the deposited data

How the results depend on the processing

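With all libraries 2186 genes were called, and no called gene changed direction under any alternative. The groups did not overlap in 2183 of them, so a change of direction was hardly possible. Leaving out 1 library at a time gave 1286 to 2126 called genes, 633 to 1009 higher and 653 to 1117 lower; the lowest counts came without NAC library 1, and without NAC library 2 they were 1427, 669 and 758. In these fits the lone library of a group is assumed to vary like the other groups. Asking for at least 2-fold left 324 genes, 149 higher and 175 lower. Limma on log2(FPKM + 1) called 996 higher and 737 lower, and DESeq2 called 1695 genes, of which 1682 were shared. Protocol as a term gave 1689 calls, 1596 of them shared. A replicate block of the 2 library sets matched in the study's source data gave 1804 calls, 1801 of them shared; exchanging the control libraries between the sets, chosen after seeing the data, gave 3178 calls that included all 2186. Of 37 list medians, 14 changed sign in some setting, none larger in size than 0.078. The cause of these differences was not tested. Protocol cannot be told apart from library in the control group, where 1 library has each protocol. Whether low counts limited the calls of genes near the filter was not tested.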

Other observations

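Further gene lists are given beside the shares over all tested genes, 9.01% called higher and 9.64% lower. Of 40 ribosomal protein genes, 4 were called lower and 0 higher with all libraries, and 0 were called without NAC library 1 or without NAC library 2. Of 33 respiratory chain subunit genes, 1 fell, Sdhb, for the iron-sulfur subunit of succinate dehydrogenase, at 113 and 118 FPKM in the control libraries and 86.3 and 89.4 FPKM in the NAC libraries (log2 fold change -0.44, SE 0.09, adjusted p = 0.0022). Without control library 2, 6 of the 33 were lower. Lysosome and autophagy genes rose for 7 of 32 and fell for 0, and 1 of the 7 kept its call whichever library was left out. That gene was Map1lc3b, for the autophagosome protein LC3B, at 30.5 and 33.1 FPKM in the control libraries and 50.4 and 48.5 FPKM in the NAC libraries (log2 fold change 0.59, SE 0.10, adjusted p = 0.00027). Of 27 ER chaperone and unfolded protein response genes, 4 rose and 2 fell, and without NAC library 1 the number that rose was 0. P4hb, for protein disulfide isomerase, was the one that fell besides Ero1a, at 381 and 399 FPKM in the control libraries and 286 and 302 FPKM in the NAC libraries (log2 fold change -0.45, SE 0.09, adjusted p = 0.0016). Of 19 heat shock protein genes, 1 rose and 4 fell; without NAC library 1, 0 rose and 2 fell, and 2 of the 4 kept the call whichever library was left out. Cryab, for the small heat shock protein alpha-B crystallin, was at 18.4 and 24.7 FPKM in the control libraries and 9.53 and 8.48 FPKM in the NAC libraries and fell (log2 fold change -1.30, SE 0.17, adjusted p = 2.3e-05), while the PQ libraries were at 34.2 and 41.2 FPKM.

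Sterol and fatty acid synthesis genes were called higher for 2 of 31 and lower for 4, near the 18.7% called over all tested genes; the number lower was 11 without control library 1 and 2 without control library 2. Abca1, for the cholesterol exporter, was at 2.45 and 2.8 FPKM in the control libraries and 4.36 and 4.43 FPKM in the NAC libraries and rose (log2 fold change 0.70, SE 0.12, adjusted p = 0.0004). Of 23 FOXO factors and targets, 5 rose and 4 fell; without NAC library 2, 2 rose and 2 fell, and 2 in each direction kept the call whichever library was left out. Pink1, for a kinase that marks damaged mitochondria, was at 14.7 and 17.0 FPKM in the control libraries and 34.8 and 34.5 FPKM in the NAC libraries, with nearly equal NAC values above both controls (log2 fold change 1.08, SE 0.11, adjusted p = 9.2e-07). Ccng2, for cyclin G2, was at 40.2 and 43.2 FPKM in the control libraries and 22.7 and 26.6 FPKM in the NAC libraries and fell (log2 fold change -0.81, SE 0.13, adjusted p = 0.00013). In the Notch pathway 3 of 12 genes rose and 2 fell, and 1 in each direction kept the call whichever library was left out. Dll1, for a Notch ligand, was at 0.94 and 1.15 FPKM in the control libraries and 4.73 and 4.02 FPKM in the NAC libraries, 4.05-fold higher in NAC in the fit (log2 fold change 2.02, SE 0.22, adjusted p = 2.7e-06). Among 15 BMP, TGF-beta and Id genes, 3 rose and 3 fell, and 1 in each direction kept the call whichever library was left out. Of 3 replication-dependent histone genes tested, 1 rose and 2 were not called.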
